A study of Mus musculus with 9 samples.

Results

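The CDK inhibitors of the Cip/Kip and Ink4 families are the proteins that brake the cyclin-dependent kinases (CDKs) of the cell cycle. The 7 genes described here were taken by name: the Cip/Kip members Cdkn1a, Cdkn1b and Cdkn1c, which encode p21, p27 and p57, and the Ink4 members Cdkn2a, Cdkn2b, Cdkn2c and Cdkn2d, which encode p16 (and, in another reading frame, p19Arf), p15, p18 and p19. All 7 were listed in both deposited gene comparisons, among 22631 genes in the comparison of Mutant with Control and among 27775 genes in the comparison of the arms called PT and PUT.

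Cip/Kip proteins bind cyclin and CDK together and restrain the kinases of both G1 and S phase. Ink4 proteins bind only Cdk4 and Cdk6 and keep them from pairing with D-type cyclins, so that the retinoblastoma proteins stay active and E2F factors stay silent. In muscle stem cells p21, p27 and p57 are known for their part in quiescence and in the cell cycle exit that precedes fusion, and p21 is also a classic target of p53. Cdkn2a and Cdkn2b lie side by side at a locus that Polycomb proteins silence in growing cells, and Cdkn1c is imprinted, its maternal copy being the active one.

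RNA was measured in satellite cells (skeletal muscle stem cells) from the hindlimb muscles of mice 9 weeks old. By the labels there were 9 libraries in 3 groups of 3: Control (oil), Mutant (tamoxifen, with Uhrf1 lost in satellite cells) and Cre Control (tamoxifen). By the labels' protocols the Mutant mice received 150 µl of tamoxifen at 20 mg/ml into the peritoneum on each of 5 days. Cells of the Control and Mutant groups grew for 3 days from 5000 per cm2 before RNA was taken. The Cre driver, the alleles that the Control mice carry and any pooling of mice are not given in the sources used here. Control and Mutant thus differ in tamoxifen as well as in Uhrf1, and these cannot be told apart in this comparison. Which groups the arms PT and PUT are is not given either, so they were assigned to none. The series asks by its title how Uhrf1, which guides maintenance DNA methylation at newly copied DNA, bears on the growth and differentiation of these cells, and the inhibitors are read here as brakes on that growth.

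The windows in front of the start sites are shown first, because the members called in Mutant against Control, Cdkn1a and Cdkn2c, have 2 annotated starts each and because the 2 starts of Cdkn2a give different proteins. The sequences are RefSeq's (GRCm38.p6), the 250 bases before the start, 5′ to 3′ on the strand of the gene. In the first, capitals mark a match to the p53 response element of 20 bases, a pair of decamers of which at most 1 outer letter was allowed to differ from the consensus. In the others, capitals mark GGGCGG, the core of an Sp1 site, and an E2F octamer, any of TTTCCCGC, TTTCGCGC, TTTGCCGC and TTTGGCGC, on either strand. Where GGGCGG and CCGCCC or the octamers overlapped, each was counted.
Cdkn1a, upstream start (chr17:29090729-29090978, plus strand): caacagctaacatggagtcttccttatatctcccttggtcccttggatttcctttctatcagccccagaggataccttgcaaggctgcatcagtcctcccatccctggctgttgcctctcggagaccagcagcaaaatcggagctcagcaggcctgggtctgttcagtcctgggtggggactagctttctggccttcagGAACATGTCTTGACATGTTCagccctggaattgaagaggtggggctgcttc
Cdkn1a, downstream start (chr17:29093519-29093768, plus strand): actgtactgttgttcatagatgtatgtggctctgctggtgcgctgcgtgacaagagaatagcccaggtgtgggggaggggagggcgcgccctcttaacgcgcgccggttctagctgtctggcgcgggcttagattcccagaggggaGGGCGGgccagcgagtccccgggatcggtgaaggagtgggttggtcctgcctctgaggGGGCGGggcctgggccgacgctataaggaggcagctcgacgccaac
Cdkn2c, upstream start (chr4:109666757-109667006, minus strand): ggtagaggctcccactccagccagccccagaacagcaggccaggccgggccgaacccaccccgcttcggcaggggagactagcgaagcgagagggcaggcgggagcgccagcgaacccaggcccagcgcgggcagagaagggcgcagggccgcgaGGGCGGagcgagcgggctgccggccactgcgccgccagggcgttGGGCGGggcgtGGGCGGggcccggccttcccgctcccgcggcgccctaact
Cdkn2a, upstream start, of p19Arf (chr4:89294620-89294869, minus strand): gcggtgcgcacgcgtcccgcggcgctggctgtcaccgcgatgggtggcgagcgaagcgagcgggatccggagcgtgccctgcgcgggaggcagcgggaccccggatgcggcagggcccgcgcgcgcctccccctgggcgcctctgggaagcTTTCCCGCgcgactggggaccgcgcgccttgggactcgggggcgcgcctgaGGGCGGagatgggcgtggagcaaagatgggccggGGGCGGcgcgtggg
Cdkn2a, downstream start, of p16 (chr4:89282193-89282442, minus strand): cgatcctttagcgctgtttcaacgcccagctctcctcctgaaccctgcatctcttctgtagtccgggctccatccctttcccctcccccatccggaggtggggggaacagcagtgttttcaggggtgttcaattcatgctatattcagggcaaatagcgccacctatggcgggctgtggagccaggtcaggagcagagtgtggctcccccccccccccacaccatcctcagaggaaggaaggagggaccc

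The upstream window of Cdkn1a held the p53 element GAACATGTCTTGACATGTTC at chr17:29090928-29090947, which begins 51 bases before the upstream start and 2841 bases before the downstream one. Among 32851 RefSeq windows of the same length, 15 held such an element (0.0457%). The other 8 windows of the members held none. The Cdkn1a match uses the 1 letter allowed to differ, and the element was chosen after the sequences were seen. Its rarity therefore describes this pattern and carries no test. The downstream window of Cdkn1a held GGGCGG 2 times and the upstream window of Cdkn2c 3 times; in all, 5 of the 9 member windows held it, against 32.7% of all windows. The E2F octamer TTTCCCGC stood in the p19Arf window of Cdkn2a and in no other member window, while 1.86% of all windows held one of the 4 octamers. CAGCTG, an E-box form bound by MyoD, and GTAAACA, a forkhead core, were in 0 of the 9 windows, against 13.0% and 3.17% of all. CpG dinucleotides, the letters that Uhrf1-dependent methylation acts on, ranged from 2 in the upstream Cdkn1a window to 40 in the p19Arf window, with 19 in the downstream Cdkn1a window, 29 in the upstream Cdkn2c window and a median of 6 over all windows. The downstream Cdkn2c window (chr4:109665373-109665622), not printed, held 6 CpG and no GGGCGG. These are matches of letters and say nothing of binding or methylation, which were not measured here. RefSeq windows matched 6 of the 7 members; Cdkn1c did not match.

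For genes, the deposited tables hold group means and comparisons, so no spread between libraries can be given for a level. The decimals of the deposited means show 3 values behind each: multiplied by 3, 99.8% of the Control and 99.8% of the Mutant means between 20 and 80 TPM (transcript abundance scaled to gene length and library total) were whole at 4 decimals within 0.01 of a unit, against 33.9% and 34.0% when multiplied by 2. The labels do not tie the libraries of a group to different mice, so the spread behind the authors' p-values is that of these libraries and may be technical. A library stood apart in the repeat counts of the same samples, the only values per library used here: the retroviral sequence IAPEz-int took 0.501% and 0.675% of repeat counts in Control 1 and Control 2, 13.1% in the library labelled Control 3 and 9.29% to 16.3% in the Mutant libraries. No member has a value without that library, and its part in the member values was not tested. Uhrf1 stood at 118 TPM in Control and 20.4 TPM in Mutant by the authors' deposited table, and had a log2 fold change of −4.00 (SE 0.27) in their table of PT and PUT.

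The cultures carried the markers of their label. The summed authors' means of 9 satellite cell and myoblast markers were 2642 TPM in Control and 2586 TPM in Mutant, and 2 of the 9 rose and 4 fell by the authors' deposited table. Pax7, which defines satellite cells, rose from 23.1 to 29.6 TPM (0.35, SE 0.08), while Myod1 went from 1018 to 914 TPM, Vcam1 from 75.8 to 57.9 TPM (−0.38, SE 0.07) and Cdh15 from 91.7 to 74.6 TPM (−0.31, SE 0.09), all 3 called lower by the authors' deposited table. Macrophage and leukocyte markers (9 of 10 listed) summed to 34.3 and 115 TPM, of which Laptm5 made up 25.1 and 84.8 TPM; Laptm5 and Cd68 (3.46 to 6.27 TPM) rose by the authors' deposited table, 2 of the 9, while the defining marker Ptprc stood at 0.381 and 0.303 TPM and C1qa at 0.0496 and 0.0648 TPM. Endothelial markers (6 of 6) summed to 16.4 and 12.9 TPM by the authors' means, and 3 of them were called: Cdh5 (−1.34, SE 0.41) and Pecam1 (−0.87, SE 0.31) fell and Tek (1.31, SE 0.40) rose by the authors' deposited table. Fibroblast markers (6 of 6) summed to 50.9 and 53.03 TPM by the authors' means, with 0 called by the authors' test and 1, Col1a1, at an unadjusted p below 0.05. Smooth muscle and pericyte markers (5 of 5) summed to 448 and 456 TPM, of which Acta2 made up 422 and 421 TPM. Of these 5, 1 was called: Rgs5, a pericyte marker, rose from 0.359 to 2.93 TPM (3.03, SE 0.37) by the authors' deposited table. Myh11, not called, had a negative value (0.470 and 0.228 TPM, −1.03, SE 0.50). The part of all these cell types in the values below was not tested, and in bulk RNA fewer cells of a type and less RNA per cell cannot be told apart.

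Cdkn1a was by far the most abundant member and Cdkn1c the least. In Control the authors' mean was 474 TPM for Cdkn1a, 40.4 TPM for Cdkn2c, 27.4 TPM for Cdkn1b, 23.0 TPM for Cdkn2d, 17.5 TPM for Cdkn2a, 8.21 TPM for Cdkn2b and 3.94 TPM for Cdkn1c. In Mutant the authors' means were 726 TPM for Cdkn1a, 29.3 TPM for Cdkn2c, 24.3 TPM for Cdkn1b, 22.03 TPM for Cdkn2d, 19.5 TPM for Cdkn2a, 11.0 TPM for Cdkn2b and 5.91 TPM for Cdkn1c. The order of the 7 levels was the same in both groups; without values per library, whether neighbours such as Cdkn1b and Cdkn2d differ beyond their spread cannot be said. Cdkn1a ranked 233 of 22631 genes by its overall mean by the authors' deposited table. It made up 79.7% of the summed TPM of both families in Control and 86.6% in Mutant.

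**Figure D1:**
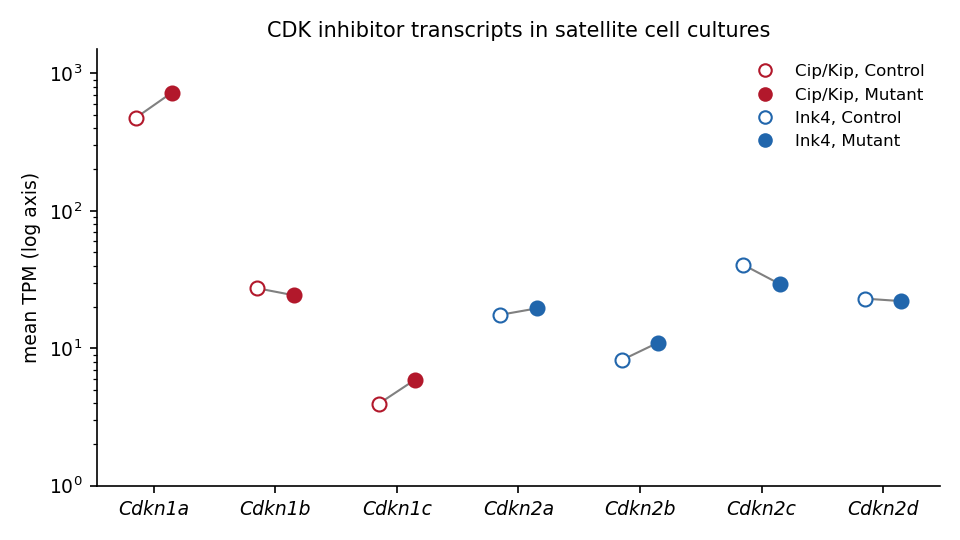
The authors' mean TPM (vertical log axis) of each of the 7 members in Control (open circles) and Mutant (filled circles), Cip/Kip members in red and Ink4 members in blue. Cdkn1a stands above all others, at 474 and 726 TPM, and Cdkn2c falls from 40.4 to 29.3 TPM.

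The first comparison asked which brakes differed between Uhrf1-deficient and Control cells. Cdkn1a rose and Cdkn2c fell, and the other 5 members did not pass the threshold of an adjusted p below 0.05. That is 2 of 7 members called, where 17.1% of all genes tested were called by the authors' deposited table and 35.3% of those whose mean reached 10 TPM, so the number of members called does not stand out. Of all genes, 9.02% were called higher and 8.11% lower by the authors' deposited table, and of those whose mean reached 10 TPM, 15.6% and 19.7%. The log2 fold changes printed beside a standard error (SE) are the authors' statistic times their SE, since the fold change deposited beside it is the log2 ratio of mean TPM plus 1, which understates changes of low genes. Intervals are 95% intervals from that SE.

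Among the Cip/Kip members, Cdkn1a, the gene of p21, rose from 474 to 726 TPM, which is 1.53 times the Control mean. Its log2 fold change was 0.54 (SE 0.13, adjusted p = 0.000597 by the authors' deposited table), a 1.45-fold rise with an interval of 1.21 to 1.74. Cdkn1b encodes p27, which holds resting cells in G1. It stood at 27.4 and 24.3 TPM, with a log2 fold change of −0.18 (SE 0.10, adjusted p = 0.242 by the authors' deposited table). Its interval, 0.776 to 1.01 times the Control level, lies almost wholly below that level. Cdkn1c, the gene of p57, had the largest positive value and the widest error of the family, at 0.81 (SE 0.31, unadjusted p = 0.00993 and adjusted p = 0.0566 by the authors' deposited table). The authors' means behind it were only 3.94 and 5.91 TPM, and its interval ran from 1.14 to 2.67 times the Control level. It passed the threshold when p-values were adjusted over the 13625 genes whose mean reached 1 TPM.

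Among the Ink4 members, Cdkn2c, whose p18 is the Ink4 protein of many growing and differentiating cells, fell from 40.4 to 29.3 TPM. Its log2 fold change was −0.46 (SE 0.10, adjusted p = 4.83e-05 by the authors' deposited table), or 0.725 times the Control level with an interval of 0.634 to 0.83. Cdkn2d, the gene of p19, was the closest to no change, with 23.0 and 22.03 TPM and a log2 fold change of −0.09 (SE 0.15, adjusted p = 0.893 by the authors' deposited table). Cdkn2a and Cdkn2b, the pair of genes linked to senescence, stood 11645 bases apart on chromosome 4. Cdkn2a was at 17.5 and 19.5 TPM, with 0.14 (SE 0.21, adjusted p = 0.85 by the authors' deposited table) and an interval of 0.834 to 1.46 times the Control level. Its p16 and p19Arf transcripts share exons and were counted as 1 gene, so the 2 starts cannot be told apart. Cdkn2b, which TGF-beta induces in many cells, was at 8.21 and 11.0 TPM, with 0.42 (SE 0.24, adjusted p = 0.283 by the authors' deposited table) and an interval of 0.966 to 1.85.

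By family, the Cip/Kip transcripts summed to 505 TPM in Control and 757 TPM in Mutant by the authors' means, and the Ink4 transcripts to 89.1 and 81.9 TPM. The Cip/Kip sum was thus 5.67 times the Ink4 sum in Control and 9.24 times in Mutant. That shift lay in Cdkn1a: the other 6 members together summed to 120 TPM in Control and 112 TPM in Mutant, and Cdkn1b and Cdkn1c to 31.3 and 30.2 TPM. The median log2 fold change was 0.54 for the 3 Cip/Kip and 0.03 for the 4 Ink4 members, against 0.01 over all genes tested, from the estimates in the authors' deposited table. The difference between these medians, 0.51, has no test, since genes are not replicates, and it was 0.29 without Cdkn1a and 0.15 without Cdkn1c. Each family held 1 called member, Cip/Kip higher and Ink4 lower.

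The second comparison, of the arms PT and PUT, called close to every other gene, so a single call is less unusual there: 47.2% of all genes were called by the authors' deposited table, 25.1% with a positive and 22.1% with a negative fold change. Fold changes are PT over PUT as the table is named. Of the 7 members 5 were called, which is 71.4%, against 61.1% of genes whose mean reached 10 normalised counts (29.4% positive and 31.6% negative). Cdkn1a, Cdkn1b and Cdkn2b had positive and Cdkn2c and Cdkn2d negative fold changes. Levels in this table are normalised counts that were not divided by gene length, so they are not compared between genes. Cell type markers moved too: 7 of 9 satellite cell and myoblast markers were called lower and 1 higher by the authors' deposited table. Called higher were 4 of 5 smooth muscle, 2 of 4 fibroblast and 2 of 6 endothelial markers listed. Of 6 macrophage and leukocyte markers, 3 were called higher and 1 lower by the authors' deposited table. The higher ones were Laptm5 (1.997, SE 0.12, at 555 normalised counts), Fcer1g (4.65, SE 0.64, at 29.4) and Lyz2 (4.65, SE 1.67, at only 2.26). The lower one was Csf1r (−0.46, SE 0.16, at 177 normalised counts), and Cd68 and Cd14 were not called. The part of these marker changes in the member values was not tested.

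Cdkn1a, at 6751 normalised counts, had a log2 fold change of 0.27 (SE 0.08, adjusted p = 0.00223 by the authors' deposited table), a 1.2-fold difference with an interval of 1.08 to 1.34. Cdkn1b (361 normalised counts) had the largest positive value of its family, 0.54 (SE 0.13, adjusted p = 0.000133 by the authors' deposited table). Cdkn1c, with 42.3 normalised counts, was not called, at 0.19 (SE 0.30, adjusted p = 0.648 by the authors' deposited table). The strongest change of all 7 was that of Cdkn2c (494 normalised counts), −1.004 (SE 0.10, adjusted p = 5.9e-21 by the authors' deposited table), or 0.499 times with an interval of 0.433 to 0.574. The other called Ink4 member with a negative value was Cdkn2d, at −0.43 (SE 0.15, adjusted p = 0.0144 by the authors' deposited table) and 205 normalised counts. Cdkn2b and Cdkn2a had opposite signs: 0.90 (SE 0.27, adjusted p = 0.0029 by the authors' deposited table) at 65.2 normalised counts for the first, and −0.35 (SE 0.20, adjusted p = 0.151) at 103 normalised counts for the second. The medians were 0.27 for Cip/Kip and −0.39 for Ink4, against 0.14 over all genes tested, by the fold changes of the authors' deposited table.

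Set side by side, the fold changes of Cdkn1a were 0.54 and 0.27 and those of Cdkn2c −0.46 and −1.004 by the authors' deposited tables of Mutant against Control and of PT against PUT. These 2 members were called in both, each in the same direction. Of genes whose mean reached 10 TPM, 35.3% were called in Mutant against Control. In PT against PUT it was 61.1% of genes whose mean reached 10 normalised counts. The share of all genes called in both in the same direction was not counted, so the overlap is not read as particular to these members. The values of Cdkn1b were −0.18 and 0.54, those of Cdkn2b 0.42 and 0.90, and those of Cdkn2d −0.09 and −0.43. Whether the 2 tables share libraries is not stated in the sources used here, so neither was taken as a repeat of the other, and differences between them were not tested.

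**Figure D2:**
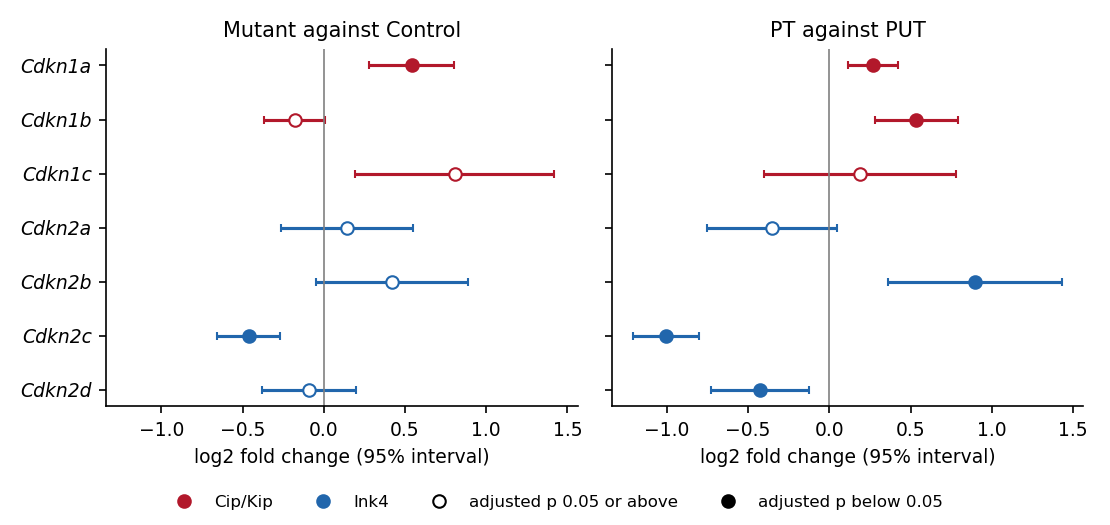
Log2 fold changes of the 7 members (horizontal axis; bars are 95% intervals from the authors' SE) for Mutant against Control on the left and PT against PUT on the right, Cip/Kip in red, Ink4 in blue, filled where the adjusted p was below 0.05. Cdkn1a lies right of 0 and Cdkn2c left of 0 in both panels, while Cdkn1b moves from −0.18 to 0.54.

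2 members overlap another annotated gene on the opposite strand. AC167363.2 lies against Cdkn1a and Gm44732 against Cdkn1c. Both were listed only by the authors' deposited table of PT and PUT, with 160 and 17.6 normalised counts and log2 fold changes of −1.79 (SE 0.18) and −0.45 (SE 0.46). The kit of the Control and Mutant libraries keeps the strand by the labels' protocols, but whether counting used it is not stated in the sources used here, so reads of these pairs may not have been told apart. By GENCODE M21 (GRCm38) Cdkn1a lies at chr17:29090976-29100727 (plus strand), Cdkn1b at chr6:134920401-134925513 (plus), Cdkn1c at chr7:143458339-143461050 (minus), Cdkn2a at chr4:89274471-89294653 (minus), Cdkn2b at chr4:89306299-89311039 (minus), Cdkn2c at chr4:109660876-109667189 (minus) and Cdkn2d at chr9:21288410-21291407 (minus). All 7 are protein-coding genes.

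Among the kinases and cyclins that the inhibitors act on, several fell in Mutant. Of 9 G1 and S phase cyclins and kinases, 6 fell and 0 rose by the authors' deposited table (median −0.60, against 0.01 over all genes tested). As a scale for this list and those below, 15.6% of all genes whose mean reached 10 TPM were called higher and 19.7% lower in Mutant against Control. In PT against PUT the shares were 29.4% and 31.6% of genes whose mean reached 10 normalised counts. Cdk6, a direct partner of the Ink4 proteins, fell from 58.1 to 35.2 TPM (−0.70, SE 0.07, adjusted p = 7.67e-23 by the authors' deposited table), and the cyclins Ccna2 and Ccne1 fell by 0.69 (SE 0.07) and 0.68 (SE 0.10) on the log2 scale. Per transcript, the Ink4 sum was 0.151 of the sum of Cdk4 and Cdk6 in Control and 0.177 in Mutant by the authors' means, since the kinase sum went from 590 to 463 TPM and the Ink4 sum from 89.1 to 81.9 TPM. Cdkn1a was 8.25 times the level of Cdk2, a main target of p21, in Control and 18.9 times in Mutant, again by the authors' means. The Ink4 sum counts all of Cdkn2a (17.5 and 19.5 TPM), whose p16 and p19Arf transcripts cannot be told apart. These ratios of means carry no error. In PT against PUT, 1 of the 9 was called higher and 4 lower by the authors' deposited table (median −0.11, against 0.14 over all genes).

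Downstream of the kinases, 8 of 13 pocket proteins and E2F factors fell and 0 rose in Mutant by the authors' deposited table (median −0.30). E2f2 fell from 43.4 to 22.5 TPM (−1.18, SE 0.10), E2f4, which with pocket proteins represses genes in resting cells, fell from 115 to 81.2 TPM (−0.52, SE 0.08), and Rbl1, the pocket protein p107, from 26.6 to 18.0 TPM (−0.60, SE 0.09), by the authors' deposited table. Between the PT and PUT arms, 5 were called higher and 4 lower by the authors' deposited table (median 0.02).

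Cdkn1a was next set beside p53 and its other targets. Of p53 and 17 of its targets other than Cdkn1a, 12 of 18 rose and 0 fell by the authors' deposited table (median 0.60, against 0.01 over all genes). Trp53 itself was not called, at 164 and 167 TPM (0.02, SE 0.07, adjusted p = 0.926 by the authors' deposited table). Trp53inp1 (1.94, SE 0.18), Pmaip1 (1.62, SE 0.12), Btg2 (1.61, SE 0.27) and Mdm2 (1.04, SE 0.14), all of them larger in fold than Cdkn1a at 0.54, rose by the authors' deposited table. Cdkn1a was the most abundant of all these genes in both groups. In PT against PUT the same list split, with 5 called higher and 3 lower by the authors' deposited table (median 0.03). Of the targets just named, Trp53inp1 (1.56, SE 0.10) and Pmaip1 (1.21, SE 0.14) were called higher there. Btg2 was not called (0.08, SE 0.10), and Mdm2 was called lower, at −0.25 (SE 0.07) beside 0.27 for Cdkn1a.

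Among the genes that hold down Cip/Kip proteins, Skp2, the subunit that marks p27 for destruction, fell from 50.9 to 27.4 TPM (−0.91, SE 0.09, adjusted p = 1.18e-21 by the authors' deposited table). Its cofactor Cks1b fell from 209 to 176 TPM (−0.26, SE 0.08), and Dtl, which directs p21 to another ligase, from 33.05 to 22.2 TPM (−0.54, SE 0.10), by the authors' deposited table. Of the 11 ligase subunits listed, 3 fell and 1 rose by the authors' deposited table (median −0.09). That is 4 of 11 called, beside 35.3% of all genes whose mean reached 10 TPM, so the number called does not stand out. With Skp2 lower and Cdkn1b not called, the ratio of Cdkn1b to Skp2 transcripts was 0.537 in Control and 0.888 in Mutant by the authors' means; protein was not measured. For PT over PUT, 3 of the 11 were called higher and 5 lower by the authors' deposited table. Skp2 was called lower, at −0.29 (SE 0.10), Cks1b was called higher, at 0.65 (SE 0.10), and Dtl was not called (−0.02, SE 0.10).

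The regulators of transcription of the inhibitors moved both ways. Beside their counts, 35.3% of all genes whose mean reached 10 TPM were called in Mutant against Control by the authors' deposited table. In PT against PUT 61.1% of genes whose mean reached 10 normalised counts were called. Foxo1 and Foxo3, forkhead factors that activate Cdkn1b and other arrest genes, rose by 0.73 (SE 0.09) and 0.72 (SE 0.07), while Foxo4 fell (−0.32, SE 0.11), by the authors' deposited table. Of the 6 FOXO and AKT genes 2 rose and 3 fell in Mutant, and 3 were called higher and 3 lower in PT against PUT, by the authors' deposited tables. Of the 10 Polycomb genes that silence the locus of Cdkn2a and Cdkn2b, 4 fell and 0 rose in Mutant by the authors' deposited table (median −0.16), among them Suz12 (−0.41, SE 0.07), Ezh2 (−0.33, SE 0.07) and Kdm2b (−0.36, SE 0.08). Kdm2b was at 39.5 and 39.0 TPM, so its fall rests on the test estimate. Cdkn2a and Cdkn2b themselves were not called there. In PT against PUT, 3 Polycomb genes were called higher and 4 lower by the authors' deposited table (median −0.34). Of 11 other regulators 3 rose and 2 fell in Mutant by the authors' deposited table (median −0.02). Klf4, an activator of Cdkn1a, rose from 11.0 to 20.8 TPM (0.95, SE 0.13), Hes1 rose by 0.46 (SE 0.12), and Zbtb17, the gene of Miz1, through which Myc acts on Cdkn1a and Cdkn2b, fell (−0.29, SE 0.10), by the authors' deposited table. Myod1, which induces Cdkn1a as myoblasts leave the cycle, fell slightly (−0.17, SE 0.05), and Myog stood at 589 and 291 TPM without being called (−1.03, SE 0.54, adjusted p = 0.219 by the authors' deposited table). Across the PT and PUT arms, 3 of the 11 regulators were called higher and 4 lower by the authors' deposited table.

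**Figure D3:**
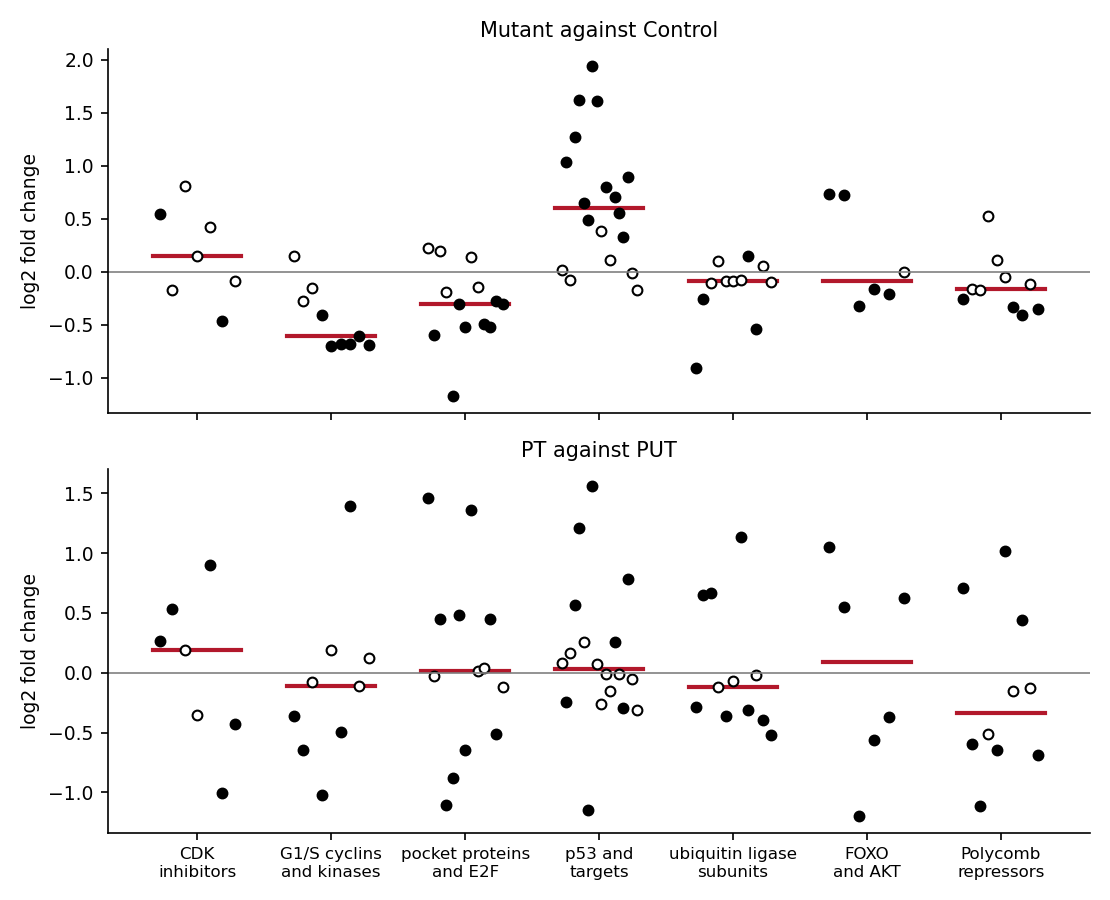
Log2 fold changes (vertical axis) of the 7 inhibitors and of the genes of 6 lists around them, for Mutant against Control above and PT against PUT below; each point is a gene, filled where the adjusted p was below 0.05, and red lines are medians. In the upper panel the median lies below 0 for cyclins and kinases (−0.60) and above it for p53 and its targets (0.60), while the inhibitors spread on both sides (median 0.14).

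Neighbouring genes on the chromosome were read for both loci with known epigenetic control. Around the imprinted Cdkn1c, 6 of 9 listed neighbours were in the table of Mutant and Control, of which Cd81 (268.9 to 407 TPM; 0.61, SE 0.06) and Osbpl5 (0.24, SE 0.08) rose and Nap1l4 fell (−0.21, SE 0.06) by the authors' deposited table. The imprinted RNA Kcnq1ot1, whose transcription silences Cdkn1c on the paternal copy, was listed only by the authors' deposited table of PT and PUT, with a log2 fold change of 0.94 (SE 0.10) beside 0.19 (SE 0.30) for Cdkn1c. Kcnq1ot1 was named after its value was seen. Beside Cdkn2a and Cdkn2b, Mtap, an enzyme of methionine salvage, fell from 137 to 111 TPM in Mutant (−0.32, SE 0.07) and had 0.21 (SE 0.08) in PT against PUT, by the authors' deposited tables.

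Over the 2 comparisons and 8627 genes whose mean reached 10 TPM, the genes closest to Cdkn1a in fold change were Fat1, Ssbp4, Unc93b1, Arhgef5 and Alg2. Their distances on the log2 scale lay between 0.00812 and 0.0224. Fat1, an atypical cadherin, was at 80.2 and 118 TPM, with 0.55 (SE 0.04) and 0.27 (SE 0.06) by the authors' deposited tables. Closest to Cdkn2c were Dctpp1, Tomm40, Pola2, AL731706.1 and Cdca4, with distances of 0.00838 to 0.0289. Pola2, a subunit of the polymerase that primes replication, fell from 38.5 to 28.6 TPM, with −0.45 (SE 0.09) and −1.02 (SE 0.10) by the authors' deposited tables. All 5 genes closest to Cdkn2c were called lower in both comparisons, a direction that follows from how they were chosen. Of those closest to Cdkn1a, Ssbp4 and Unc93b1 were not called in PT against PUT (adjusted p = 0.224 and 0.123 by the authors' deposited table). Likeness over 2 comparisons is a coarse measure, and nothing about shared control follows from it.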

How the data were processed

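RNA of satellite cells was measured in the Control, Mutant and Cre Control libraries. The submitters' processing notes name the builds GRCm38 and mm10, the trimmer Trim Galore 0.6.6, the aligners STAR 2.7.6a (Control and Mutant) and HISAT2 2.2.1 (Cre Control), the counter featureCounts 2.0.1, and DESeq2. The authors deposited mean TPM per group with log2 ratios of those means, SEs, statistics (score values), p-values and adjusted p-values. Per the file headers, the table of PT and PUT gives log2 fold changes and mean signal (normalised counts averaged over libraries). The authors also deposited whole-number counts per repeat subfamily. In the first gene table and in the counts, header names stand 1 cell left of their values and were read accordingly. Depth per library is unknown for genes; repeat counts were 1794698 to 2245124 per library. Cre Control was not analysed here, because no gene column is tied to it.

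Members, lists and rules were chosen with earlier results of these data known. No test was fitted: calls are the authors', at an adjusted p below 0.05. Test estimates are statistic times SE, and 95% intervals use 1.96 SE. Benjamini-Hochberg adjustment for the alternatives was tested on simulated data (Python 3.11.15, pandas 2.3.3). All 7 member IDs matched GENCODE M21 without version numbers. All 7 members were described; from each list, called genes whose mean reached 1 TPM were named, at most the 3 with the largest test estimates, plus Trp53, Mdm2, Skp2, Foxo3, Myod1, Myog and Ezh2, and by likeness the 5 closest genes; other names were chosen after their values were seen, as was the p53 element after the sequences were seen. Alternatives were other thresholds and adjustments, pseudocounts of 1 and 0.1 on TPM, centring, means in place of medians, and each member left out.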

Additional observations from a re-analysis of the deposited data

How the results depend on the processing

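No paired analysis was possible because the gene tables carry no values per library, and for the same reason no library could be left out. In Mutant against Control 2 members were called; thresholds of 0.01 and adjustment over every gene gave 2, and a threshold of 0.1, adjustment over genes whose mean reached 1 TPM, or an unadjusted p below 0.05 (added after seeing the data) gave 3, the third being Cdkn1c. In PT against PUT 5 were called, and 4 at a threshold of 0.01, where Cdkn2d dropped out; the other settings gave 5. The Cip/Kip minus Ink4 difference of medians in Mutant against Control was 0.51, moved to 0.29 without Cdkn1a and to 0.15 without Cdkn1c, and was 0.44 by the ratio of TPM with a pseudocount of 1; over all 12 alternatives it was between 0.15 and 0.65. With PT set against PUT, it was 0.66, and between 0.55 and 0.79 over 10 alternatives. Of 180 alternative values of 45 named genes, 0 changed the sign of a called gene. Among the 7 members, the value that moved by more than its SE was that of Cdkn1c, 0.81 by the test estimate and 0.48 by the ratio of TPM plus 1. Other named genes moved by more of their SEs under that ratio, among them Kdm2b (−0.36 to −0.02), Rgs5 (3.03 to 1.53), E2f2 (−1.18 to −0.92) and Cdh5 (−1.34 to −0.76). With a pseudocount of 0.1 in place of 1, Cdkn1c was at 0.57, Rgs5 at 2.72 and Cdh5 at −1.21. Kdm2b stayed at −0.02 and E2f2 was at −0.94. The cause of these differences was not tested.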

Other observations

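Outside both families, 3 genes carry a name from CDK inhibition. Cdkn3, a phosphatase that acts on Cdk2, had authors' means of 34.0 (Control) and 26.7 TPM (Mutant) (−0.39, SE 0.18, adjusted p = 0.145 by the authors' deposited table). Cdkn2aip, which binds p19Arf, was at 12.9 and 13.9 TPM, and its paralogue Cdkn2aipnl at 22.6 and 22.7 TPM by the authors' means. In Mutant against Control 0 of the 3 passed by the authors' deposited table, by the authors' test, and at an unadjusted p below 0.05 Cdkn3 did. In PT against PUT Cdkn2aipnl was called, at 0.37 (SE 0.14, adjusted p = 0.0174 by the authors' deposited table).

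A match to the p53 element, by the same consensus with at most 1 outer letter off, was present in the windows of 14 other genes. Their sequences need not be that of Cdkn1a. Of these genes 6 were listed in the comparison of Mutant with Control. Rps27l, a ribosomal protein paralogue known as a p53 target, rose from 707 to 898 TPM (0.34, SE 0.06, adjusted p = 7.29e-07 by the authors' deposited table), and Calhm2, a calcium homeostasis modulator, from 4.77 to 8.15 TPM (0.73, SE 0.18, adjusted p = 0.000798 by the authors' deposited table). The other 4, Gm29797, Olfr1057, Olfr1062 and Sptbn4, were at means of 0.22 to 0.282 TPM and were not called by the authors' deposited table. Between the PT and PUT arms, 4 of the 14 were listed, 1 called higher (Rps27l, 1.11, SE 0.08) and 2 lower (Calhm2, −0.29, SE 0.12, and Sptbn4, −1.70, SE 0.59) by the authors' deposited table. These genes were gathered after the sequence of Cdkn1a had been seen, so they carry no test. Of all genes, 9.02% were called higher in Mutant against Control. In PT against PUT 25.1% of all genes were called higher and 22.1% lower.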
